A study of Rattus norvegicus with 10 samples.

Results

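The proteasome is the barrel-shaped protease that degrades most ubiquitin-tagged proteins of the cell. Its genes were taken from the deposited expression table as the rows whose symbol begins with Psm, a letter from a to g and a digit. That rule found 48 of the 16041 rows, and 46 of these are proteasome genes. The other rows are Psmc3ip, which encodes a recombination cofactor, and Psme1-ps1, which carries a pseudogene symbol, and both are left out of the classes below, though they count among the 48 members. Psma8 and Psme1 had no row under those symbols and were not analysed here.

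The 20S core is a stack of rings in which alpha subunits form the gates and beta subunits hold the proteolytic sites. The 19S cap binds ubiquitin chains, removes them, unfolds the substrate with a ring of ATPases and feeds it into the core. Interferon induces the immunoproteasome subunits Psmb8, Psmb9 and Psmb10, which replace the constitutive catalytic subunits Psmb5, Psmb6 and Psmb7 and favour peptides for antigen presentation. In the brain the 26S proteasome, a core with its caps, turns over synaptic proteins, and the immunoproteasome is best known from microglia.

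RNA of the prefrontal cortex was sequenced with a stranded mRNA kit, from male Sprague-Dawley rats that had reached adulthood. The control group held 5 rats and the early life stress (ELS) group held 5 rats raised under limited nesting from postnatal day 2 to 9. Tissue of both groups was collected on postnatal day 91, and the labels name no further treatment, genotype or litter. Because nothing says which rats shared a litter, the p-values measure only the spread between these samples. Limited nesting acts on the dam and the whole litter, so litter and stress cannot be told apart where litter mates were used.

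The values are RPKM, reads scaled to the length of the gene model and to the size of the library. Levels can be set side by side between genes only as far as those lengths fit the transcripts. Totals recovered from the RPKM steps were between 18838898 and 22311136 reads per library. The share of them in the listed genes was 71.1 to 72.4% in controls. Under ELS it was 71.8% in replicate 2 and 72.9 to 73.7% in the other libraries. Genes at 0 numbered 385 to 449 in controls and 450 to 504 under ELS. The part of these differences in the RPKM values was not tested. The totals averaged 20861443 ± 1238653 (SD, n = 5) in controls and 19876034 ± 784379 (SD, n = 5) under ELS, which an exact two-sided permutation test did not separate (p = 0.175). Across 14642 genes tested with limma on log2(RPKM + 0.1), 0 passed an adjusted p of 0.05 (0%), while 10.1% were higher and 10.3% lower at an unadjusted p under 0.05. A library of each group stood apart. Control replicate 4 had the highest summed oligodendrocyte markers, 2304 RPKM against 1121 to 1437 in the other controls. ELS replicate 2 had 134 RPKM of Map2, inside the control range of 127 to 138, whereas the other ELS libraries had 78.7 to 86.7. Without ELS replicate 2, 444 genes passed the adjusted threshold (3.03%), and 1116 passed when control replicate 4 was left out as well (7.62%). Both libraries were singled out by values of these same data, so calls made without them are descriptions and no separate support. A fit that weights libraries by their quality (limma-voom on recovered reads) called 1051 (7.18%), and the same tool with no weights called 0.

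In the ELS rats all 17 subunits of the 19S cap had a higher mean than in controls, 10 of them at an unadjusted p under 0.05, with a median log2 fold change of 0.11 (range 0.04 to 0.21). Of the 14 constitutive subunits of the 20S core, 11 had a higher mean, 2 of them at that p, with a median of 0.05 (range -0.06 to 0.12). Over all genes tested 50.6% had a fold change above 0 and the median was 0.00371. Among genes of the abundance of the 19S genes, 69.9% lay above 0, 23.5% were higher at that p and the median was 0.06. The immunoproteasome subunits with enough reads to test both had a lower mean, as had the 3 activators that dock on the core in place of the cap. For Psmb10, Psme2 and Psme3 among these, the fold change was smaller than its standard error and changed sign under some alternatives. None of the 47 members tested, Psmc3ip and Psme1-ps1 included, passed the adjusted p over all genes. The difference between cap and core was not tested. Neuron markers summed to 2516 to 2695 RPKM in controls and 2755 to 3119 under ELS, and their part in the 19S and 20S values was not tested. In bulk tissue, fewer cells of a type and less RNA per cell cannot be told apart.

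**Figure D1:**
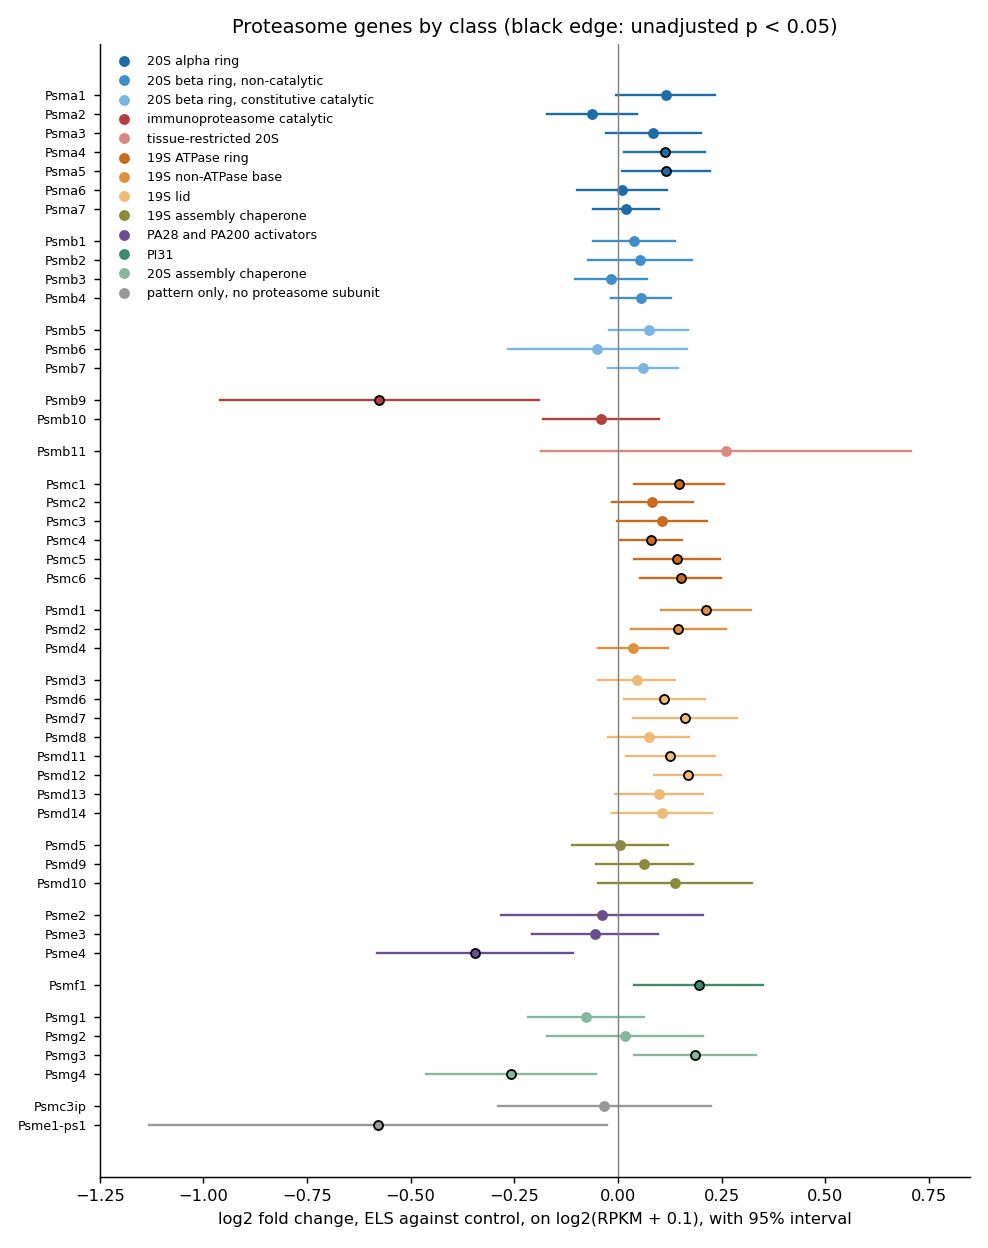
Log2 fold change of each tested member, ELS against control, on log2(RPKM + 0.1), with its 95% interval, grouped by class. The 17 genes of the 19S ATPase ring, base and lid all lie to the right of 0, while Psmb9, Psme4, Psmg4 and Psme1-ps1 lie to the left of it with intervals that exclude 0.

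Of 47 members tested, 35 had a fold change above 0 and 12 below, with 14 higher and 4 lower at an unadjusted p under 0.05. Without Psmc3ip and Psme1-ps1, which both lay below 0, the 45 proteasome genes tested had 35 above 0 and 10 below, with 14 higher and 3 lower at that p. All ELS libraries lay above all control libraries for 4 members, each of the 19S cap, against 3.08% of all genes tested. For 0 members did they all lie below, against 2.6% of genes. Genes of similar abundance give a second background. Among the 2618 genes whose mean RPKM lies in the range of the 19S genes (20.5 to 90.4), a range chosen after the data were seen, 69.9% had a fold change above 0 and 23.5% were higher at an unadjusted p under 0.05. The median of those genes was 0.06, so more of the genes of that abundance lay above 0 than of all genes tested. Beside them, the 19S genes had 17 of 17 above 0, 10 higher at that p and a median of 0.11. The constitutive 20S genes had 11 of 14 above 0, 2 higher at that p and a median of 0.05, close to that background. Their own range of mean RPKM was 10.6 to 70.5. Neither difference from the background was tested. The share of genes whose groups did not overlap was not counted within that abundance range.

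The members' promoters were searched for a motif known from the control of proteasome genes. Nfe2l1 is the transcription factor that raises proteasome genes when the protease is inhibited, and with its relative Nfe2l2 it binds the antioxidant response element. The core of that element, TGACNNNGC on either strand, was searched in the 250 bases before the start of each gene in the RefSeq promoter table (GRCr8), where 42 of the 48 members, Psmc3ip among them, matched by symbol. It was present in 7 of these (16.7%), against 10.2% of all 27457 promoters in the table and 12.4% of those of genes in the expression table. Among 20S constitutive genes it was found in 4 of 13 (30.8%), namely Psma3, Psmb2, Psmb5 and Psmb6. Among 19S genes it was found in 1 of 14 (7.14%), Psmd1, and among the immunoproteasome genes in 0 of 3. Psmd9 and Psme4 held it too. The 3 promoters shown are those of the 19S gene with a match, of a core catalytic gene with a match, and of Psme4, a gene with a match and a lower mean under ELS. Each is written 5′ to 3′ on the gene's strand with the match in capitals. That of Psmd1 is chr9:94157721-94157970 on the plus strand, that of Psmb5 is chr15:32047380-32047629 on the minus strand, and that of Psme4 is chr14:108706393-108706642 on the plus strand.
Psmd1: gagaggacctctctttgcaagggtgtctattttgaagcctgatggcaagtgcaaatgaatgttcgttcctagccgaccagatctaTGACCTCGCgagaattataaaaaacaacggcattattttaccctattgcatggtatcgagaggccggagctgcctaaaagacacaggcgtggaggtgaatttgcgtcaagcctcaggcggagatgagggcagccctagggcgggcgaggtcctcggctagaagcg
Psmb5: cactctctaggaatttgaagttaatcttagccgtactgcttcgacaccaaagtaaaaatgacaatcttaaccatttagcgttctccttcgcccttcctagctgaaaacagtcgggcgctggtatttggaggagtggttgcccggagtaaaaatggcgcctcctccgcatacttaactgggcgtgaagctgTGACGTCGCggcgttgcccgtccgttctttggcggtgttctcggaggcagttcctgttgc
Psme4: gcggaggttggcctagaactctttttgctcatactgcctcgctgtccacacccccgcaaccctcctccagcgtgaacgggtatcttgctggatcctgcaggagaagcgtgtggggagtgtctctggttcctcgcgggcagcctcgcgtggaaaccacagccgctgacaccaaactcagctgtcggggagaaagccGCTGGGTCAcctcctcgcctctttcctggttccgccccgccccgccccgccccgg
The match begins 165 bases before the start in Psmd1, 60 in Psmb5 and 55 in Psme4, where it is read on the opposite strand. A match describes these letters only. The difference between the share of 19S and of 20S promoters that hold it was not tested, and no binding was measured.

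A second motif, the gamma-activated site through which interferon gamma acts (TTCNNNGAA, which reads the same on both strands), was added after the data were seen. It was present in 4 of 42 member promoters (9.52%) and in 7.52% of all promoters and 5.82% of those of genes in the expression table. Of the immunoproteasome genes Psmb8 held it, 245 bases before the start, and Psmb9 and Psmb10 did not. Psmc6, Psmd3 and Psmd7 of the 19S cap were the other carriers, and no member's promoter held both motifs.

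The base of the 19S cap held the member with the largest fold change in that complex. Psmd1 (ENSRNOG00000017730), the large scaffold subunit of the base, had 39.5, 40.0, 36.2, 36.7 and 40.7 RPKM in control replicates 1 to 5 and 45.7, 41.7, 46.0, 46.8 and 43.5 RPKM in ELS replicates 1 to 5. Every ELS library lay above every control, and ELS replicate 2 was the nearest to them. The mean went from 38.6 ± 2.03 to 44.7 ± 2.09 RPKM (SD, n = 5 each), a difference of 15.8%, with a log2 fold change of 0.21 ± 0.05 (SE; adjusted p = 0.133 by limma). Over the 19 alternatives tried its adjusted p lay between 0.0259 and 0.294. It was 0.0369 by limma without ELS replicate 2, an omission that takes away the ELS value nearest to the controls.

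Psmd2, the base subunit on which ubiquitin-carrying shuttle proteins dock, had 50.3, 52.0, 48.4, 46.0 and 50.6 RPKM in controls and 54.0, 49.5, 56.9, 57.8 and 55.7 under ELS. Its groups overlapped through ELS replicate 2 alone, and the other 4 ELS libraries lay above the highest control (log2 fold change 0.15 ± 0.05, adjusted p = 0.17). Psmd4, a ubiquitin receptor, differed least of the 19S genes, with 41.7 ± 1.23 RPKM in controls and 42.8 ± 1.48 under ELS (log2 fold change 0.04 ± 0.04). Over all libraries Psmd2 was the most abundant of these 3 base genes at 52.1 RPKM, followed by Psmd4 at 42.3 and Psmd1 at 41.7, whose levels differ by less than their spread.

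The 6 ATPases that unfold substrates, Psmc1 to Psmc6, all had a higher mean under ELS, 4 of them at an unadjusted p under 0.05, and their median log2 fold change was 0.12. Psmc6 had 28.0, 29.0, 27.5, 28.0 and 27.0 RPKM in controls and 29.9, 29.0, 31.4, 33.4 and 31.4 under ELS. ELS replicate 2 was again the library that met the controls, and the log2 fold change was 0.15 ± 0.04 (adjusted p = 0.135). Psmc5, the most abundant 19S gene, had 90.2, 83.2, 91.1, 81.1 and 84.2 RPKM in controls and 92.5, 88.7, 98.6, 98.5 and 95.8 under ELS. Only ELS replicate 2 lay within the control range (log2 fold change 0.14 ± 0.05, adjusted p = 0.158).

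Psmc1 had 57.1, 61.5, 62.6, 54.5 and 61.5 RPKM in controls and 63.8, 64.3, 70.8, 65.6 and 64.5 under ELS. Its groups did not overlap, with ELS replicate 1 the nearest to control replicate 3 (log2 fold change 0.15 ± 0.05, adjusted p = 0.16). Psmc4 did not overlap either, with controls at 35.2 to 37.2 RPKM and ELS libraries at 37.4 to 39.2 (log2 fold change 0.08 ± 0.03, adjusted p = 0.226). The remaining ATPases, Psmc2 and Psmc3, had log2 fold changes of 0.08 and 0.11 and missed an unadjusted p of 0.05. The ATPases form a ring with 1 copy of each, yet their transcripts spanned levels from 29.5 RPKM for Psmc6 to 90.4 for Psmc5. The gene model of Psmc6 was the longest of the ring, 2379 bases against 1288 to 1626 for the others. Its reads (1266 to 1667 per library) were more than those of Psmc4 (998 to 1167).

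All 8 lid genes had a higher mean under ELS, 4 of them at an unadjusted p under 0.05, with a median log2 fold change of 0.11. The lid carries the deubiquitinase Psmd14, which cuts the chain off the substrate, and the inactive subunit Psmd7 that pairs with it. Psmd12 (ENSRNOG00000003117), a structural lid subunit, had the lowest p of all members. It had 28.1, 26.9, 26.3, 28.0 and 28.5 RPKM in controls and 31.5, 29.9, 31.4, 31.0 and 31.1 under ELS. The groups did not overlap, and the ELS libraries were the tighter group, at 31.0 ± 0.634 against 27.6 ± 0.939 RPKM (SD, n = 5 each). The log2 fold change was 0.17 ± 0.04 (adjusted p = 0.133), with an adjusted p of 0.0251 to 0.294 over the alternatives. It was 0.0411 by limma without ELS replicate 2, here too the ELS library nearest to the controls.

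Psmd7 had 49.1, 48.6, 48.7, 43.7 and 49.5 RPKM in controls and 52.8, 48.5, 58.7, 56.1 and 52.2 under ELS. Control replicate 4 was low and ELS replicates 3 and 4 were high, so the spread within each group was wide (log2 fold change 0.16 ± 0.06, adjusted p = 0.169). Psmd11, the subunit that clamps lid and core together, averaged 19.6 ± 0.504 RPKM in controls and 21.4 ± 1.32 under ELS (adjusted p = 0.192). Psmd6 averaged 45.0 ± 2.31 and 48.6 ± 1.52 RPKM (adjusted p = 0.198). Both groups overlapped for these genes. Psmd14 itself had a log2 fold change of 0.11 ± 0.05 and Psmd3 the lowest of the lid, 0.04 ± 0.04. Neither passed an unadjusted p of 0.05, and nor did Psmd8 or Psmd13.

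**Figure D2:**
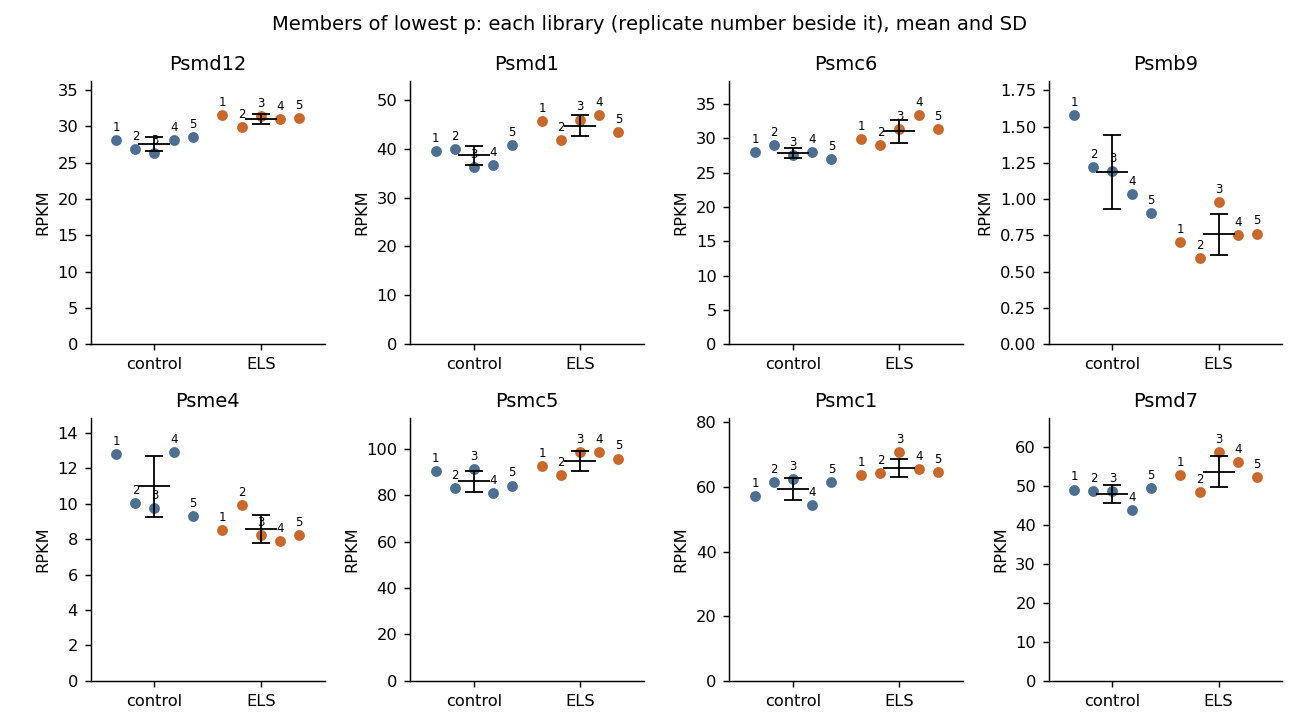
RPKM of the 8 members of lowest p in each of 5 control and 5 ELS libraries, numbered by replicate, with mean and SD. Psmd12, Psmd1 and Psmc1 separate the groups, and ELS replicate 2 is the ELS library nearest to the controls for 6 of the 8 genes, Psmb9 and Psmc1 being the exceptions.

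The subunits of the 19S cap were also read library by library, each as a percent of its control mean. Their median was between 97.0 and 102% in the controls. It was 107, 102, 113, 112 and 109% in ELS replicates 1 to 5. In ELS replicates 3, 4 and 5 all 17 subunits were above their control mean, in replicate 1 there were 16 and in replicate 2 there were 11. The counts above the highest control were 13, 4, 13, 15 and 16 of 17. Thus 4 ELS libraries carried the difference in most subunits and ELS replicate 2 lay level with the highest control. All 17 fold changes stayed above 0 in each of the 19 alternatives, including each omission of a library, while the number at an unadjusted p under 0.05 varied from 7 to 14.

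**Figure D3:**
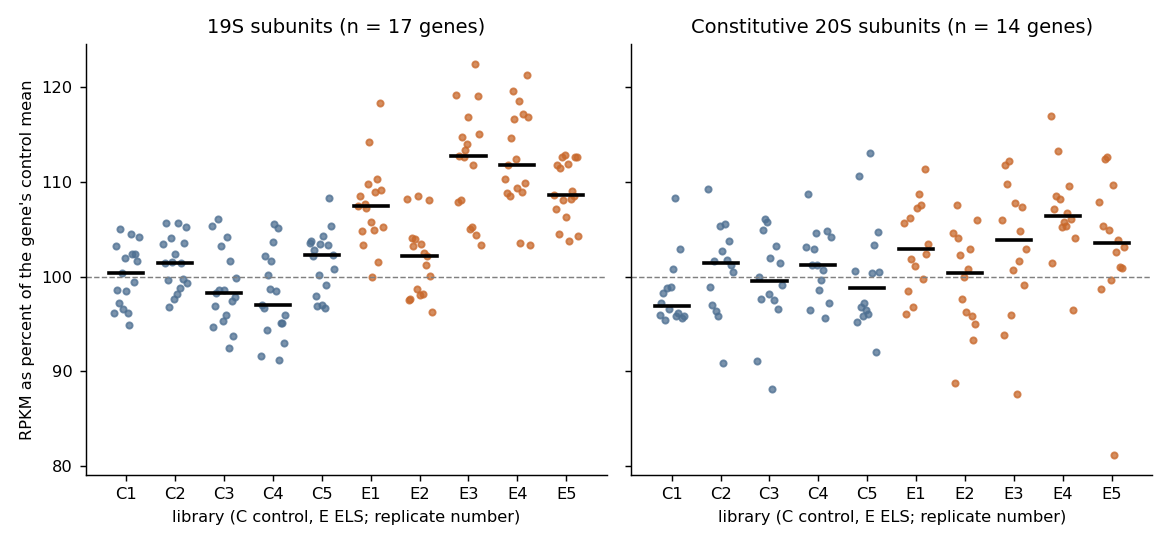
RPKM of each 19S gene (left, 17 genes) and each constitutive 20S gene (right, 14 genes) as a percent of its control mean in each library, with the median as a bar. The 19S medians of ELS replicates 1, 3, 4 and 5 lie at 107 to 113%, and the 20S medians of all ELS libraries lie at 100 to 106%.

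The constitutive 20S core was read in the same way. Its median was 96.9 to 101% of the control mean in the controls and 103, 100, 104, 106 and 103% in ELS replicates 1 to 5. Of its 14 subunits, 4, 1, 6, 8 and 4 lay above the highest control in those libraries, and for 0 did the groups separate. Summed over the 14 genes, the core amounted to 549.7 to 571.6 RPKM in controls and 556.1 to 599.4 under ELS. The 17 cap genes summed to 699.8 to 730.7 and 733.5 to 811.2 RPKM, ranges that did not overlap.

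Of the 7 alpha subunits, which gate the core, 6 had a higher mean under ELS. Psma4 averaged 10.2 ± 0.393 RPKM in controls and 11.0 ± 0.328 under ELS (log2 fold change 0.11 ± 0.04, adjusted p = 0.199). Psma5 averaged 37.6 ± 1.65 and 40.8 ± 2.19 RPKM (0.12 ± 0.05, adjusted p = 0.216). Psma2 was the subunit with a lower mean, 47.7 ± 2.47 against 45.7 ± 2.31 RPKM, a difference within the spread of its libraries (log2 fold change -0.06 ± 0.05). The alpha genes ranged from 10.6 RPKM for Psma4 to 62.9 for Psma7, although the ring holds 1 copy of each protein. Gene models of 3909 bases for Psma4 and 3559 bases for Psma3 go with these low values. The other alpha models were 874 to 1174 bases long, and the reads of Psma4 (760 to 909 per library) and Psma3 (1031 to 1202) were within the range of the rest.

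The beta subunits that lack a proteolytic site differed little in their means. Psmb1, the most abundant at 70.5 RPKM, had a log2 fold change of 0.04 ± 0.04, and Psmb3, the lowest at 40.0 RPKM, had -0.02 ± 0.04. Psmb4 and Psmb2 lay between 0.05 and 0.06. For none of these 4 genes did the 95% interval exclude 0, and the highest upper bound, that of Psmb2, was 0.18.

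The 3 constitutive catalytic subunits split the peptide bond after different residues. Psmb5 carries the chymotrypsin-like site and had 38.3, 39.0, 38.7, 37.5 and 36.5 RPKM in controls and 40.8, 36.6, 41.0, 40.2 and 41.7 under ELS. All but ELS replicate 2 were above the controls (log2 fold change 0.07 ± 0.04, adjusted p = 0.354). Psmb7, the trypsin-like subunit, averaged 31.6 ± 1.17 RPKM in controls and 33.0 ± 0.835 under ELS (0.06 ± 0.04, adjusted p = 0.391). Psmb6, the caspase-like subunit, averaged 12 ± 1.29 and 11.6 ± 1.42 RPKM (-0.05 ± 0.10, adjusted p = 0.80).

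The immunoproteasome genes were at the low end of the family. Psmb8, the counterpart of Psmb5, had 0.450, 0.571, 0.244, 0.521 and 0.566 RPKM in controls and 0.395, 0.231, 0.626, 0.438 and 0.415 under ELS, from 9 to 26 reads per library. The test required 0.5 RPKM in 5 libraries, which 4 of them reached, so Psmb8 was not tested, and its groups cover the same range. Psmb10, the counterpart of Psmb7, averaged 9.59 ± 0.679 RPKM in controls and 9.31 ± 0.551 under ELS (log2 fold change -0.04 ± 0.06, adjusted p = 0.745).

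Psmb9 (ENSRNOG00000000459), the counterpart of Psmb6, had 1.58, 1.22, 1.19, 1.03 and 0.903 RPKM in controls and 0.705, 0.594, 0.982, 0.752 and 0.763 under ELS. The ELS libraries were lower except that ELS replicate 3 lay above control replicate 5, so the groups overlapped. The mean went from 1.19 ± 0.254 to 0.759 ± 0.141 RPKM, and the log2 fold change was -0.58 ± 0.17 (adjusted p = 0.138). Its size depended on the pseudocount, with -0.31 at a pseudocount of 1, and ran from -0.70 to -0.31 over the alternatives. These values rest on 17 to 49 reads per library, and the 95% interval of the log2 fold change ran from -0.96 to -0.19. The quality-weighted fit gave Psmb9 an adjusted p of 0.0382, in a range of 0.0382 to 0.295 over the alternatives. The 11 microglial markers all had a lower mean under ELS as well, 5 at an unadjusted p under 0.05, summing to 155.8 to 179.2 RPKM in controls and 135.6 to 158.6 under ELS. Their part in the Psmb9 value was not tested.

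As a share of its constitutive counterpart in the same library, Psmb8 was 1.24 ± 0.369% of Psmb5 in controls and 1.04 ± 0.322% under ELS. Psmb9 was 9.95 ± 2.27% of Psmb6 in controls and 6.66 ± 1.85% under ELS. Psmb6 had the lowest level of the constitutive counterparts, 11.8 RPKM over all libraries against 39.0 for Psmb5 and 32.3 for Psmb7. It rested on 139 to 192 reads per library, which limits this share. Psmb10 was 30.3 ± 1.78% of Psmb7 in controls and 28.3 ± 2.13% under ELS (SD, n = 5 in each). The 3 mean ratios were lower under ELS and every pair of groups overlapped. These ratios are descriptions of transcripts, and the make-up of the assembled core was not measured.

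**Figure D4:**
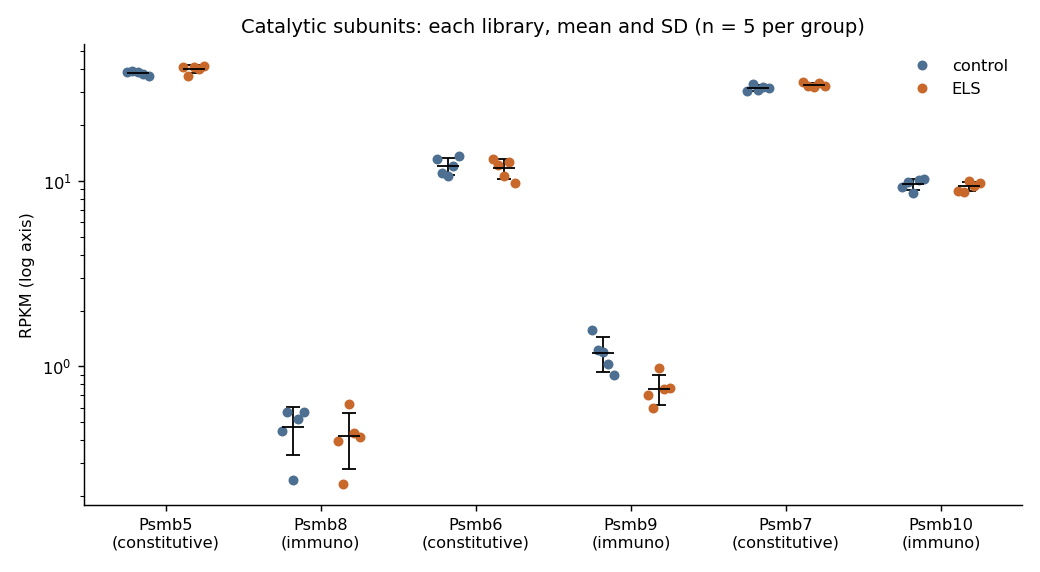
RPKM (log axis) of the 3 constitutive catalytic subunits and their immunoproteasome counterparts in each library, with mean and SD for control and ELS (n = 5 per group). Psmb8 and Psmb9 lie around and below 1 RPKM, and Psmb9 is the subunit whose groups lie furthest apart.

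Psmb11, the catalytic subunit of the thymus proteasome, was read at 0.544 to 0.898 RPKM in controls and 0.619 to 1.16 under ELS, from 11 to 22 reads (log2 fold change 0.26 ± 0.20, adjusted p = 0.483). The 95% interval of the log2 fold change ran from -0.19 to 0.71, and over the alternatives the value lay between 0.13 and 0.35.

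The activators that open the core without ubiquitin each had a lower mean under ELS, 1 of 3 at an unadjusted p under 0.05. Psme4 (ENSRNOG00000060340), or PA200, which is known for acetylated histones as substrates, had 12.8, 10.1, 9.77, 12.9 and 9.33 RPKM in controls and 8.50, 9.96, 8.22, 7.91 and 8.26 under ELS. Control replicates 1 and 4 were the high ones, and ELS replicate 2 lay inside the control range while the other 4 ELS libraries lay below it. Controls averaged 11.0 ± 1.75 and ELS libraries 8.57 ± 0.806 RPKM, and limma put the log2 fold change at -0.34 ± 0.11 with an adjusted p of 0.142. Under the quality-weighted fit the adjusted p was 0.0373, in a range of 0.0373 to 0.305 over the alternatives. Psme3, the nuclear PA28 subunit, was at 14.3 ± 1.05 and 13.8 ± 1.03 RPKM, and the interferon-induced Psme2 was at 1.87 ± 0.284 and 1.80 ± 0.107 RPKM. Their fold changes were smaller than their standard errors and turned sign under some alternatives.

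Psmf1 encodes PI31, a core-binding protein first described as an inhibitor and known for proteasome transport in axons. It had 17.6, 20.3, 19.5, 16.3 and 21.0 RPKM in controls and 20.7, 21.2, 20.8, 22.2 and 23.1 under ELS. Control replicates 1 and 4 were low, and ELS replicates 1 and 3 lay within the control range (log2 fold change 0.19 ± 0.07, adjusted p = 0.174).

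The chaperones that build the 20S core had means on both sides of the controls. Psmg3 and Psmg4 act as a pair on the alpha ring. Psmg3 had 15.1, 14.4, 15.5, 12.8 and 12.5 RPKM in controls and 16.3, 16.2, 15.4, 16.6 and 15.1 under ELS (log2 fold change 0.19 ± 0.07, adjusted p = 0.173). Its partner Psmg4 had 10.8, 10.5, 13, 13.9 and 12.5 RPKM in controls and 9.65, 10.8, 10.4, 8.76 and 11.0 under ELS (log2 fold change -0.26 ± 0.09, adjusted p = 0.173). Thus the Psmg3 mean was higher and the Psmg4 mean lower in the ELS rats, from 195 to 277 and 106 to 179 reads per library, and the groups overlapped for each gene. The other pair, Psmg1 and Psmg2, had log2 fold changes of -0.08 ± 0.06 and 0.02 ± 0.09, at 16.7 and 6.13 RPKM. The 19S base chaperones Psmd5, Psmd9 and Psmd10 had fold changes above 0, but that of Psmd5 was 0.00433 and lay below 0 in 4 alternatives (down to -0.0182 without ELS replicate 3). They were at 6.05 (Psmd10) to 12.8 RPKM (Psmd9), and none passed an unadjusted p of 0.05.

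Of the rows that only match the symbol rule, Psmc3ip averaged 2.81 ± 0.219 and 2.76 ± 0.434 RPKM. Psme1-ps1 averaged 1.42 ± 0.441 RPKM in controls and 0.918 ± 0.281 under ELS (log2 fold change -0.58 ± 0.25, adjusted p = 0.228), from 8 to 34 reads, and the log2 fold change lay between -0.92 and -0.33 over the alternatives. Reads of Psme1 itself could be assigned to its pseudogene, so this row cannot be read as the level of either.

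Genes that work beside the proteasome were taken from lists of partners. Over all genes tested, 50.6% had a fold change above 0, and 10.1% were higher and 10.3% lower at an unadjusted p under 0.05. No list was tested against these shares. Of 11 proteasome-bound proteins and assembly factors tested, 8 had a fold change above 0, 4 were higher and 1 lower at an unadjusted p under 0.05, and the median was 0.08. Usp14, the deubiquitinase bound to Psmd2, averaged 61.7 ± 2.85 RPKM in controls and 69.0 ± 3.93 under ELS (adjusted p = 0.142). Txnl1, a thioredoxin-like protein bound to the cap, averaged 46.9 ± 1.82 and 51.7 ± 2.39 RPKM without overlap (adjusted p = 0.143). Zfand5, a proteasome activator, averaged 59.0 ± 3.34 and 64.5 ± 1.64 RPKM (adjusted p = 0.165). Ube3c was higher as well, and the ubiquitin ligase Ube3a was lower, at 6.83 ± 0.583 and 5.82 ± 0.761 RPKM.

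Of 5 genes for transcription control of the subunits, Nfe2l2 had the smallest p among all members, partners and markers. It had 7.19, 7.69, 8.37, 7.67 and 7.42 RPKM in controls and 6.46, 5.73, 6.12, 6.01 and 6.21 under ELS. Every ELS library lay below every control (log2 fold change -0.32 ± 0.06, adjusted p = 0.133). Nfe2l1 had 51.7, 51.7, 45.2, 37.1 and 54.7 RPKM in controls and 56.1, 49.4, 59.9, 61.8 and 56.4 under ELS, with control replicate 4 low and ELS replicate 2 inside the control range (0.25 ± 0.10, adjusted p = 0.22). The transcripts of these related factors thus lay on opposite sides of 0.

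Of 16 rows for ubiquitin supply and delivery, 12 had a fold change above 0, 4 were higher and 2 lower at an unadjusted p under 0.05, and the median was 0.08. These shares lay close to those of all genes of the abundance of the 19S genes. Of those genes 69.9% lay above 0, 23.5% were higher at that p and the median was 0.06. Rad23b, a shuttle that brings ubiquitinated proteins to the cap, averaged 70.1 ± 2.76 and 79.7 ± 4.21 RPKM (adjusted p = 0.133). Vcp, the segregase that extracts them, averaged 72.2 ± 2.48 and 80.2 ± 5.24 RPKM (adjusted p = 0.156). The polyubiquitin gene Ubb and the activating enzyme Uba1 were the others on that side. On the lower side, 1 of the 2 rows of Rps27a, which encodes ubiquitin fused to a ribosomal protein, averaged 158 ± 10 and 142 ± 2.45 RPKM (adjusted p = 0.138).

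All 6 interferon and antigen presentation genes tested had a lower mean, 2 at an unadjusted p under 0.05, with a median log2 fold change of -0.15. B2m, the light chain of class I molecules, had 85.2 to 95 RPKM in controls and 74.3 to 83.8 under ELS, without overlap (log2 fold change -0.18 ± 0.05, adjusted p = 0.133). Erap1, which trims peptides for those molecules, averaged 3.20 ± 0.118 and 2.77 ± 0.377 RPKM (adjusted p = 0.237). Tap1, which shares a promoter region with Psmb9 in mammals, was the lowest of the list at 0.607 RPKM.

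The cell type markers were read in the same fit. Of 8 neuron markers, which were abundant in every library, 7 had a fold change above 0, 3 were higher and 1, Map2, lower at an unadjusted p under 0.05. By library, their median was 108, 103, 117, 116 and 111% of the control mean in ELS replicates 1 to 5, the same order of libraries as for the 19S cap. In control replicates 1 to 5 the order differed. There the neuron markers had 101, 98, 96.6, 101 and 102%, and the 19S cap had 100, 101, 98.2, 97 and 102%. The 8 oligodendrocyte markers were all lower at that p, at 1121 to 2304 against 845 to 1102 RPKM. The 7 astrocyte markers, at 937.5 to 1148 against 794.2 to 875.9 RPKM, all had a lower mean, 5 at that p. The 4 endothelial markers had 35.7 to 39.9 RPKM in controls and 31.3 to 37.6 under ELS, and 0 were at that p. The 4 rows of blood cell genes were at 411.5 to 981 against 213.8 to 438 RPKM, all 4 lower at that p. No marker of testis, 4 listed, had a row.

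The part of these lists in the values of Psme4 and the other members was not tested. No source used here says whether the counting used strand, so reads of genes that overlap a member on the other strand may be included.

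**Figure D5:**
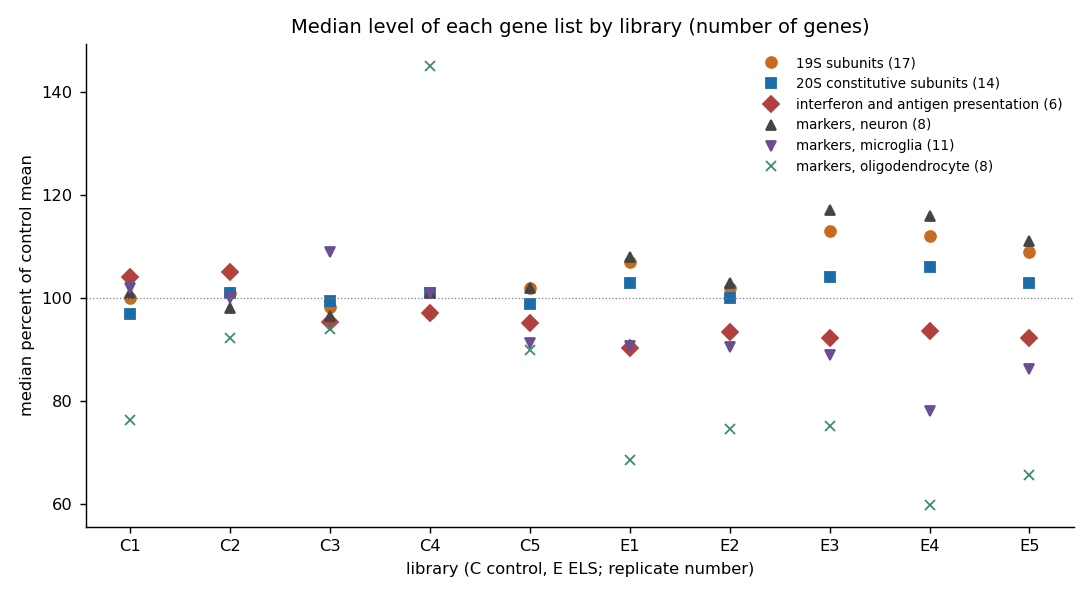
Median RPKM of each gene list, as a percent of each gene's control mean, in each library (C control, E ELS, with replicate number). In the ELS libraries the neuron markers (103 to 117%) and the 19S genes (102 to 113%) lie above 100%, and the microglia (78.0 to 90.7%) and interferon and antigen presentation genes (90.3 to 93.7%) lie below it.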

How the data were processed

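The deposited table holds values for 16041 genes in 10 libraries. STAR, featureCounts and the build rn6 are listed, without versions or roles, per the submitters' processing notes. From their steps, the values are RPKM that the authors made from read counts per gene, gene model length and library total. All values above 0 came out as whole reads within 0.002 of a read, for 16015 genes (26 were at 0 throughout), which gave back reads, lengths and totals. RPKM + 0.1 was taken to log2 and tested with limma 3.58.1 in R 4.3.3 (trend and robust moderation, two-sided). A gene entered if 5 libraries or more reached 0.5 RPKM, which removed 1399, and p-values were adjusted by Benjamini-Hochberg over the 14642 tested, with a threshold of 0.05. The p and adjusted p of every gene come from this limma fit unless another is named. The design has no replicate block.

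The members, gene lists and tests were chosen with earlier results of these data known. The named genes are the catalytic subunits, members at an unadjusted p under 0.05 (with every library for the 12 of lowest p), the highest and lowest of each class, and partners at that p (values for up to 3 per list). A partner gene that this rule would name is not reported here. All columns belonged to the 10 samples. A planned comparison of protein sequences was not made, and proteins were not used here. The scripts were tested on simulated data. Alternatives were other pseudocounts, filters and scalings, limma-voom on recovered reads, quality weights, a replicate block, and leaving out libraries.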

Additional observations from a re-analysis of the deposited data

Results flagged for a closer look

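A library far from the other 4 of its group was found 10 times among the 96 groups of values of the 48 members. For a single group chance gives about 1 in 20. The groups come from the same libraries and are not independent, so that rate cannot judge the count. ELS replicate 2 accounted for 5 of them. It was low for Psmd4, a ubiquitin receptor of the cap, with 40.2 RPKM against 43.1 to 43.9 in the other ELS libraries. It was low for the ATPase Psmc2 (45.7 against 50.2 to 50.9), the lid subunit Psmd3 (41.9 against 44.2 to 44.9) and the activator Psme3 (11.9 against 14 to 14.4). For the activator Psme4 it was high, with 9.96 RPKM against 7.91 to 8.5. ELS replicate 4 was high for the alpha subunits Psma1 (47.7 against 42.7 to 44) and Psma7 (65.8 against 62.2 to 63.2). ELS replicate 3 was high for the ATPase Psmc1, with 70.8 RPKM against 63.8 to 65.6. Control replicate 5 was high for Psma3 (16.6 against 14.5 to 14.8), and control replicate 4 was low for Psmd7 (43.7 against 48.6 to 49.5).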

How the results depend on the processing

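Of 890 values of the 47 members under 19 alternatives, 861 kept their direction and side of the threshold, 11 newly passed it and 18, from 8 members, changed sign. The cause was not tested. Adjusted calls appeared in the quality-weighted fit (1051 genes, of them 4 members: Psmd1, Psme4, Psmd12 and Psmb9) and without control replicate 4 and ELS replicate 2 (1116 genes and 5 members: Psmd1, Psmd12, Psmc6, Psmd2 and Psmd7). Leaving out 1 library gave 0 to 444 genes and 0 to 2 members, Psmd1 and Psmd12, the highest counts coming without ELS replicate 2, with 1 gene without ELS replicate 5. The quality weight was 0.174 for control replicate 4 and 0.78 for ELS replicate 2. Members higher at an unadjusted p under 0.05 numbered 9 to 18 without 1 library (14 with all), the 9 arising without ELS replicate 3 or 4. Lower members numbered 2 in place of 4 with at least 1 RPKM in all libraries, a filter that tests fewer genes. The 20S genes higher at that p, 2 with all libraries, numbered 4 without both libraries and 0 to 4 without 1 library, with 0 without control replicate 1 or ELS replicates 3, 4 or 5.

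Signs changed for Psmd5 under median-of-ratios scaling (-0.00118), for Psme2 with quality weights (0.0105), and without both libraries for Psme2 (0.0458), Psme3 (0.00942) and Psmb10 (0.00182). Without 1 library the log2 fold change ranged from -0.0182 to 0.0334 for Psmd5, -0.0168 to 0.03 for Psma6, -0.0938 to 0.0106 for Psmb6, -0.0955 to 0.0585 for Psmc3ip, -0.0763 to 0.0427 for Psme2 and -0.0516 to 0.0566 for Psmg2.

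No pairing of the samples by replicate number was detected: same-numbered deviations correlated at -0.0817 to 0.0658, and only number 3 matched itself best. A weak pairing would escape this check. With the replicate block 10 members were higher at an unadjusted p under 0.05, with 7 of the 19S genes and 1 of the 20S genes, and 0 were called. Depth limits Psmb8, Psmb9, Psmb11 and Psme1-ps1, which had 49 reads or fewer in every library.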
